A study of Homo sapiens with 4 samples.

Results

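S phase cells, the cells whose RNA carried the most transcripts of the DNA replication machinery, were examined in circular patches of MCF10A, an untransformed human breast epithelial cell line. The patches were grown from a line that carries H2B-GFP, a fluorescent histone that makes nuclei visible, on fibronectin-coated glass, in medium with horse serum, EGF, hydrocortisone, cholera toxin and insulin. All of them were kept for 6 days, incubated with the photoactivatable dyes JF549 and JF646, phototagged by illumination and sorted as live single cells. The experiments differed in how finely the patch was tagged: at low resolution in concentric rings of equal width, and at high resolution in narrower bands at the edge. Each experiment had 2 replicates, and each replicate was 1 plate of 384 wells, so that p-values measure the spread between plates. Where in the patch a cell lay was not analysed here. The paper isolated the tagged populations by flow cytometry, so a plate is a sorted mixture of regions and not an even sample of the patch. Every cell comes from 1 cell line.

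The cells were chosen by their own transcripts. In each plate, S was the summed count of 8 genes of DNA replication (PCNA, MCM3, MCM5, MCM6, RRM2, TYMS, GINS2 and CDC6) per 10000 counts of the cell, and G was the same sum over 8 genes of G2 and mitosis (CCNB1, PLK1, CDC20, AURKA, CENPF, TOP2A, UBE2C and HMMR). Cells at or above the 90th percentile of S that were below the 90th percentile of G were taken as S phase cells. This gave 27, 25, 29 and 30 cells in low-resolution replicates 1 and 2 and high-resolution replicates 1 and 2, or 111 of the 1146 cells that passed the filter. Another 7 cells were high in both sums and were left out. The S phase cells were compared with 575 low-S cells, those at or below the median S of their plate, and with 111 G2 and mitotic cells, chosen by the mirror image of the rule. Of these G2 and mitotic cells, 7 also lay among the low-S cells. No measurement of DNA content or DNA synthesis was used, so the name S phase rests on transcripts alone.

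The plates held between 11709628 and 14992348 counts of distinct transcripts, and all 4 used the same 384 well barcodes, so a barcode marks a well and not a cell. Among wells that passed the filter, 0 held identical values. The names of the deposited data carry another flow cell code for low-resolution replicate 1 than for the other 3 plates. This was not read from the sample labels. Markers of breast epithelium were present in the S phase cells: KRT5 stood between 2066 and 2537 counts per 1000000 counts of the pooled cells (CPM), KRT8 between 423 and 581 and EPCAM between 94.7 and 162, whereas TP63 had 6 counts in all S phase cells together. Of 9 markers of fibroblasts, immune cells and endothelium, COL1A2, COL3A1, CD3E, CDH5 and VWF were at 0 in the S phase cells of every plate. The summed level of the 9 was 9.65 to 19.5 CPM in S phase cells and 18.4 to 23.6 in low-S cells, and PECAM1 made up 76 of the 83 counts.

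Before a cell copies its DNA, it loads the MCM helicase onto origins in G1, and cyclin E and cyclin A with their kinases then fire those origins. E2F transcription factors switch on the genes for this machinery, including those for the MCM subunits, the sliding clamp PCNA, the enzymes that supply deoxynucleotides and the cyclins themselves. New DNA has to be wrapped in new histones, held to its sister by cohesin and checked for stalled forks, and the transcripts for these tasks are known to peak around S phase. Transcripts for spindle assembly and division accumulate later, in G2 and mitosis, under promoter elements called CCAAT and CHR.

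Promoter sequences are shown for some of the genes that define S, chosen because they carry the E2F motif. It was searched as TTTCCCGC, TTTGGCGC, TTTCGCGC or TTTGCCGC on either strand. The window ran from 250 bases before to 50 bases after the outermost RefSeq start of a gene (build GRCh38.p14). Each line gives 28 bases of that window, read on the strand of the gene, with the motif in capitals. The first 4 belong to genes of the rule, and the other 4 to genes that it did not use.
PCNA: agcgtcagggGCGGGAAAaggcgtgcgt
MCM3: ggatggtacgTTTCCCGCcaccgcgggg
MCM6: gtcaggtttgGCGCGAAAtctccagctc
GINS2: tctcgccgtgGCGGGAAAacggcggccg
MCM7: agctcggaccGCGGGAAAcccggcgcct
E2F1: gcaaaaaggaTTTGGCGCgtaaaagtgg
CDCA5: ttccgcttccTTTCCCGCagggcgggta
ZNF367: gaaatgtaacGCGGGAAAagccggggca
They lie at chr20:5126664-5126691, chr6:52284899-52284926, chr2:135876512-135876539, chr16:85688968-85688995, chr7:100101567-100101594, chr20:33686388-33686415, chr11:65084068-65084095 and chr9:96418374-96418401, all on the minus strand. The E2F motif was in 6 of the 7 S genes of the rule with a promoter in the table, all but RRM2, and in 0 of the 6 such G genes. For contrast, 2 of the G genes are shown with the CHR motif TTTGAA in capitals.
PLK1: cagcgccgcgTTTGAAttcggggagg
CDC20: acggttggatTTTGAAggagccaata
These 26 bases lie at chr16:23678850-23678875 and chr1:43358906-43358931, on the plus strand. CHR was in 5 of the 6 G genes and in 0 of the 7 S genes, and CCAAT was in 6 genes of each group.

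The values that chose the cells are given as a description. The lowest S inside the rule was 16.3, 11.2, 17.6 and 19.5 in low-resolution replicates 1 and 2 and high-resolution replicates 1 and 2, in the order used throughout, and the highest S just outside it was 16.1, 10.9, 17.1 and 19.0. The median S of the S phase cells was 22.3, 21.7, 19.8 and 22.3, against 0.786, 0.654, 1.53 and 1.21 in low-S cells. Between the plates, the limits of the groups differed more than the medians of the S phase cells: the median S of all cells, which is the upper limit of the low-S cells, was 1.60 and 1.26 at low resolution and 4.19 and 4.21 at high resolution. Within 10% of the limit lay 3, 1, 11 and 13 S phase cells. G in the S phase cells had medians of 6.39, 4.76, 5.40 and 6.27, far below those of the G2 and mitotic cells at 28.3, 25.2, 28.8 and 28.3, yet above those of the low-S cells at 0.524, 0.303, 0.720 and 0.661.

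**Figure D1:**
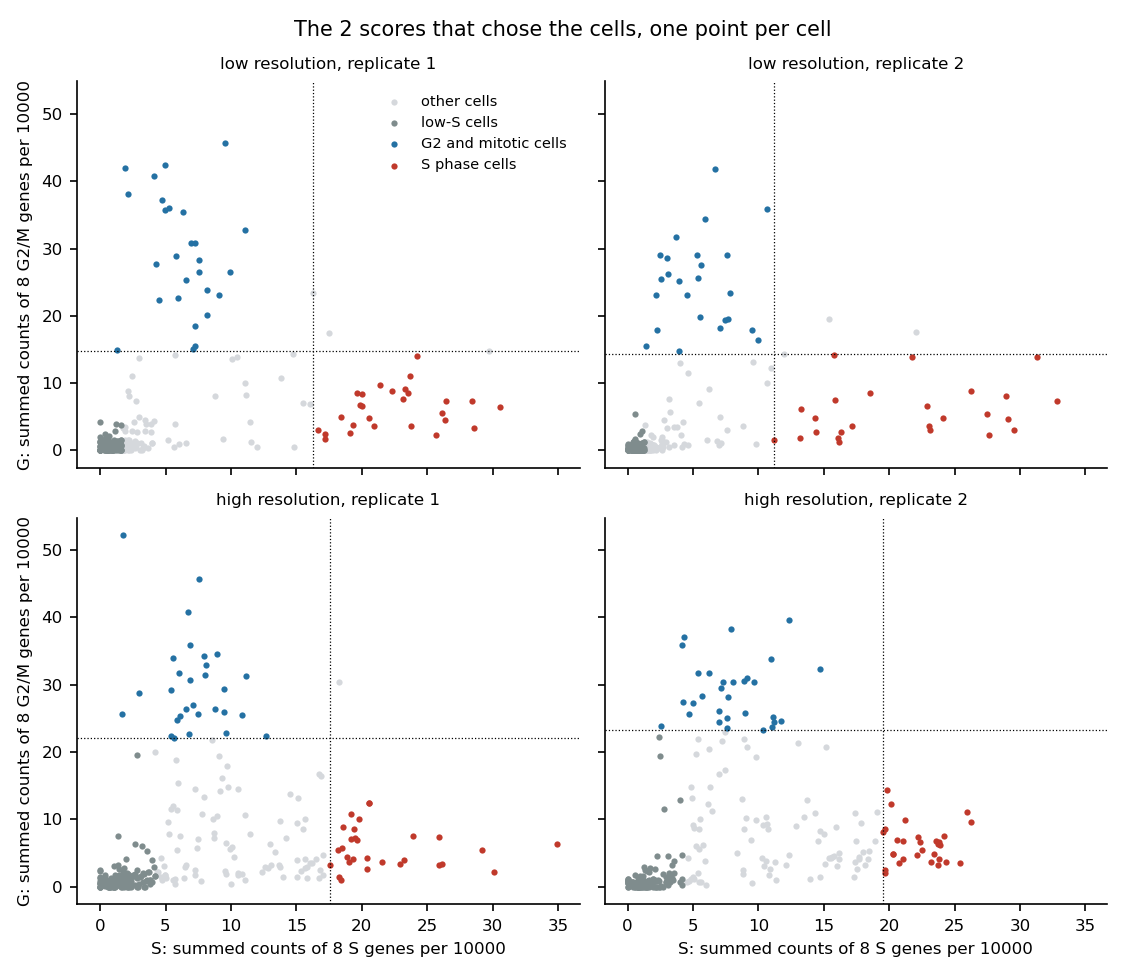
Each point is a cell that passed the filter, with S (summed counts of 8 S genes per 10000) on the horizontal axis and G (the same for 8 G2/M genes) on the vertical axis, in 1 panel per plate. Red points are S phase cells, blue G2 and mitotic cells, dark grey low-S cells (those that are also G2 and mitotic cells are blue) and light grey all others, and dotted lines mark the 90th percentiles. The low-S cells reach an S of 1.60 and 1.26 in the upper panels and of 4.19 and 4.21 in the lower panels.

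Of the 8 genes, 2 supplied most of S. RRM2, the small subunit of ribonucleotide reductase, which makes deoxynucleotides, had 765, 663, 957 and 953 CPM in the pooled S phase cells and 15.3, 8.26, 37.9 and 38.4 in the low-S cells. PCNA, the sliding clamp of the replicative polymerases, had 747, 645, 512 and 585, against 40.1, 33.2, 56.2 and 61.6. The helicase subunits MCM3, MCM5 and MCM6 stood between 83.5 and 221 in S phase cells, and GINS2 and CDC6, which help to assemble the helicase at origins, between 93.7 and 125. TYMS, thymidylate synthase, was hardly detected, with 0.804, 1.80, 2.81 and 0.608, and it added next to nothing to the sum.

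The make-up of S in single cells is also a description, since the sum of these 8 genes chose the cells. A median of 7 of the 8 genes had a count per cell in every plate, compared with 2, 1, 3 and 3 in low-S cells. All 8 were found in 7 cells and fewer than 5 in 1 cell. The gene with the most counts was RRM2 in 83 cells and PCNA in 28 cells, and it made up a median of 41.3%, 39.0%, 46.3% and 40.1% of S. PCNA led in 14 and 11 cells of the low-resolution plates and in 2 and 1 of the high-resolution plates. Across the S phase cells of a plate, with n = 25 to 30 cells that share a library and differ in depth, Spearman's rho was computed for the 28 pairs of the 8 genes. Choosing cells on the sum of these genes itself pushes the correlations of its parts down, most for the largest part, so their signs describe the chosen cells only. The median over pairs of the mean over plates was 0.0591. The highest mean was 0.297, for GINS2 with CDC6, and the lowest was -0.294, for RRM2 with CDC6, which was negative in all 4 plates at -0.559, -0.275, -0.0502 and -0.293.

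Genes that the rule did not use followed S. The label was checked on 36 other S phase markers of a published cell cycle scoring list, whose summed count per 10000 had a median of 34.7, 33.6, 28.2 and 32.0 in S phase cells, 3.76, 3.06, 3.76 and 3.74 in low-S cells, and 12.3, 10.3, 10.7 and 11.9 in G2 and mitotic cells. The lowest S phase cell had 16.2, 17.0, 13.4 and 23.8, and the highest low-S cell had 8.63, 7.39, 16.2 and 20.3. The ranges were thus separate in 3 plates and overlapped in high-resolution replicate 1, and all 111 S phase cells lay above the 90th percentile of the low-S cells of their plate.

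When the cells of a plate were divided into 10 bins by S, the same sum stayed between 3.58 and 5.13 in bins 1 to 7 of low-resolution replicate 1 and reached 8.80, 16.3 and 34.6 in bins 8 to 10. In high-resolution replicate 2 it rose earlier, from 6.34 in bin 5 to 12.7 in bin 7, 27.1 in bin 9 and 32.0 in bin 10. The 48 other G2/M markers did not rise steadily with S. Their sum was highest in bin 9 of both low-resolution plates, at 63.7 and 64.0, and in bin 7 of both high-resolution plates, at 62.7 and 79.2. In bin 10 it was 45.4, 42.8, 40.5 and 44.5, which is below the peak in all 4 plates and above bins 1 to 4, which held 6.97 to 10.4.

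**Figure D2:**
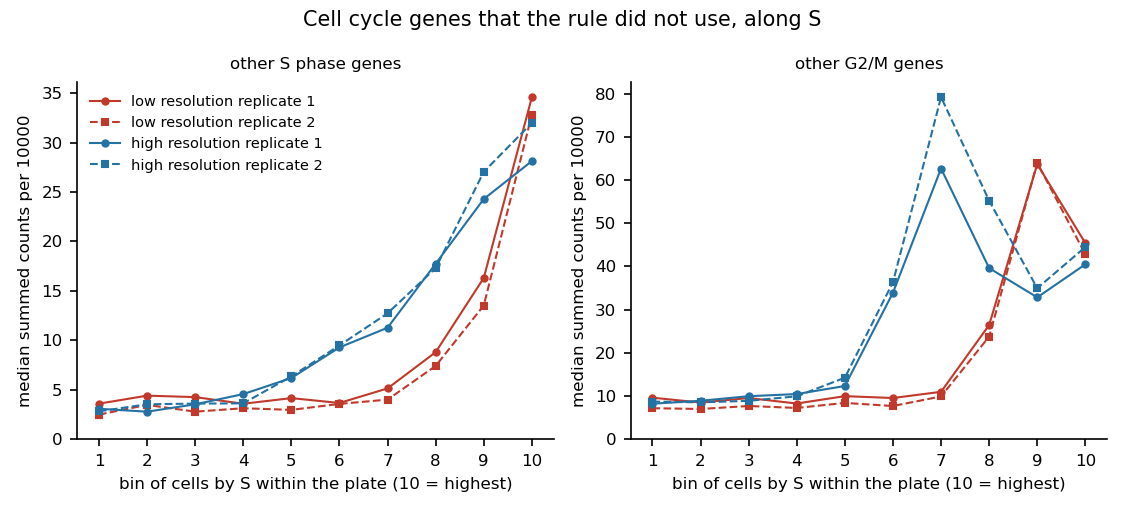
The horizontal axis gives 10 bins of cells ordered by S within a plate, and the vertical axes give the median summed counts per 10000 of 36 S phase markers (left) and 48 G2/M markers (right) that the rule did not use. Red lines are the low-resolution plates and blue lines the high-resolution plates, solid for replicate 1 and dashed for replicate 2. The S phase markers end between 28.1 and 34.6 in bin 10, and the G2/M markers peak in bin 9 at low resolution and in bin 7 at high resolution.

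S phase cells also held more RNA. The median count per cell was 43300, 43270, 46770 and 52040 in S phase cells and 26710, 31690, 27950 and 34120 in low-S cells, a difference of 16230 ± 3229 (SD, n = 4 plates) with the same sign in 4 of 4 plates. Scaled to the spike-in RNA added to each well, the ratio was 1.45 (log2 SD 0.0781, n = 4 plates). Genes with a count numbered 1236 more per S phase cell, but only 169 more when every cell was thinned to 10000 counts and chosen again, which left out 4, 3, 7 and 2 shallower cells of the plates. The mitochondrial share was 28.0%, 29.1%, 26.4% and 25.8% in S phase cells and 32.0%, 33.4%, 31.6% and 30.7% in low-S cells, lower in 4 of 4 plates. For each of these differences an exact sign-flip permutation test (two-sided) gave p = 0.125, which is the smallest that 4 plates allow. Depth, RNA content and mitochondrial share therefore moved together with every contrast to low-S cells, and their part in the gene differences was not tested. Against G2 and mitotic cells, the counts per cell differed by -589 and were higher in 2 of 4 plates (exact p = 0.875), while RNA per spike-in count was 0.888-fold and lower in 4 of 4 plates (exact p = 0.125).

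**Figure D3:**
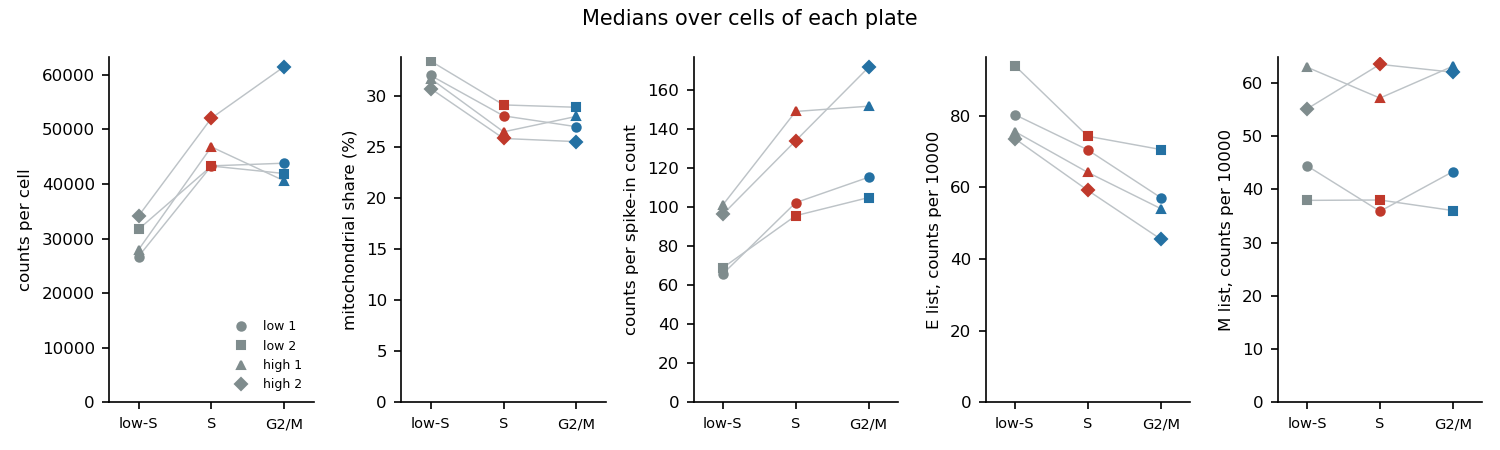
Medians over the cells of each plate are shown for low-S cells (grey), S phase cells (red) and G2 and mitotic cells (blue), with 1 marker shape per plate and grey lines joining the groups of a plate. From left to right the vertical axes give counts per cell, the mitochondrial share in percent, counts per spike-in count, and the summed counts per 10000 of the epithelial (E) and mesenchymal (M) lists. In all 4 plates the S phase cells are above the low-S cells in counts and RNA per spike-in, and below them in mitochondrial share and E list.

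To compare the groups across genes, counts were summed over the cells of a group in each plate, and these pools were tested with the plate as a block (edgeR's quasi-likelihood test, adjusted p under 0.05). A level is given in CPM, which is a share of that pool's RNA. Of 10272 genes tested outside the rule, 1990 (19.4%) were higher and 1866 (18.2%) were lower in S phase cells than in low-S cells, with 717 and 494 of them beyond a log2 fold change of 1 in size, and the median log2 fold change of all of them was -0.02. With spike-in totals as library size the median was 0.55, and 5834 genes were higher and 342 lower, a share of 94.5% higher among calls in place of 51.6%. Changes below are relative to the bulk of genes, and the spike-in value is given for each list whose direction it turns. The cells were selected on 16 genes measured in the same libraries, so the p-values describe how steadily these pools differed between plates.

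The replication machinery was higher nearly throughout. Of 28 tested genes for origin licensing and the helicase, 26 were higher and 0 lower, with a median log2 fold change of 2.92. MCM10, which helps to activate the helicase, had the largest rise of any gene tested with the same sign in every plate. It had 56.3, 46.9, 34.4 and 47.5 CPM in S phase cells and 0.238, 0, 1.44 and 0.888 in low-S cells, a log2 fold change of 5.98 (SE 0.35, adjusted p = 5.14e-10). CDC45, the helicase cofactor that joins at firing, rose from 0.238, 0.847, 1.23 and 1.95 to 41.0, 51.4, 44.2 and 48.1. The helicase subunits outside the rule were more abundant: MCM7 went from 39.8, 33.9, 73.2 and 72.5 to 552, 528, 538 and 494 (log2 fold change 3.28, SE 0.16), and MCM2 and MCM4 had log2 fold changes of 3.94 and 2.53. CDT1, which loads the helicase, and CLSPN, the checkpoint mediator claspin, rose by 4.42 and 4.50 on the log2 scale. Each of these 7 genes was higher in all 4 plates, as were 1938 of the 1990 genes called higher. ORC4 and ORC2, subunits of the origin recognition complex, did not pass the test, with log2 fold changes of 0.21 and 0.24.

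Among polymerases, clamp loaders and single-strand binding factors, 27 of 30 were higher and 1 lower, with a median of 2.56. FEN1, the flap endonuclease that trims Okazaki fragments, had 212, 244, 203 and 243 in S phase cells and 9.30, 10.2, 12.7 and 13.3 in low-S cells (log2 fold change 4.27, SE 0.12, adjusted p = 2.87e-13). DSCC1, part of a clamp loader that acts in cohesion, POLE2, a subunit of the leading-strand polymerase, and ATAD5, which unloads PCNA, had log2 fold changes of 5.01, 4.52 and 4.18. POLE4 and RNASEH2C did not pass the test, at 0.28 and 0.34. Deoxynucleotide supply followed with 19 of 21 genes higher and 1 lower, at a median of 1.28. TK1, thymidine kinase, stood at 365, 332, 367 and 321 against 25.5, 22.9, 77.1 and 60.8 (log2 fold change 2.96), and DCK and RRM1, which salvage deoxycytidine and form the large subunit of ribonucleotide reductase, at log2 fold changes of 2.90 and 2.65.

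New chromatin and sister cohesion showed the same direction. In chromatin assembly and upkeep of DNA methylation, 18 of 19 were higher and 0 lower, at a median of 2.48. ASF1B, a histone chaperone, had 215, 244, 200 and 217 against 6.44, 5.08, 11.3 and 14.7 (log2 fold change 4.49), and HELLS, CHAF1B and UHRF1 had log2 fold changes between 3.82 and 3.91. In replication stress and recombination repair, 29 of 32 were higher and 0 lower, at a median of 2.66. EXO1, an exonuclease of mismatch repair and end resection, rose by 4.99 on the log2 scale, and RAD54L, FANCB and BLM rose by 5.19, 4.76 and 4.63, from low-S pools below 1 CPM in all but 1 of 12 values. Cohesin was divided: 8 of 13 were higher and 2 lower, at a median of 0.57. CDCA5 and ESCO2, which establish cohesion at the fork, rose by 5.38 and 5.21, the core subunits SMC3 and SMC1A by 1.70 and 1.58, and STAG2 and WAPL did not pass the test at 0.32 and 0.15.

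**Figure D4:**
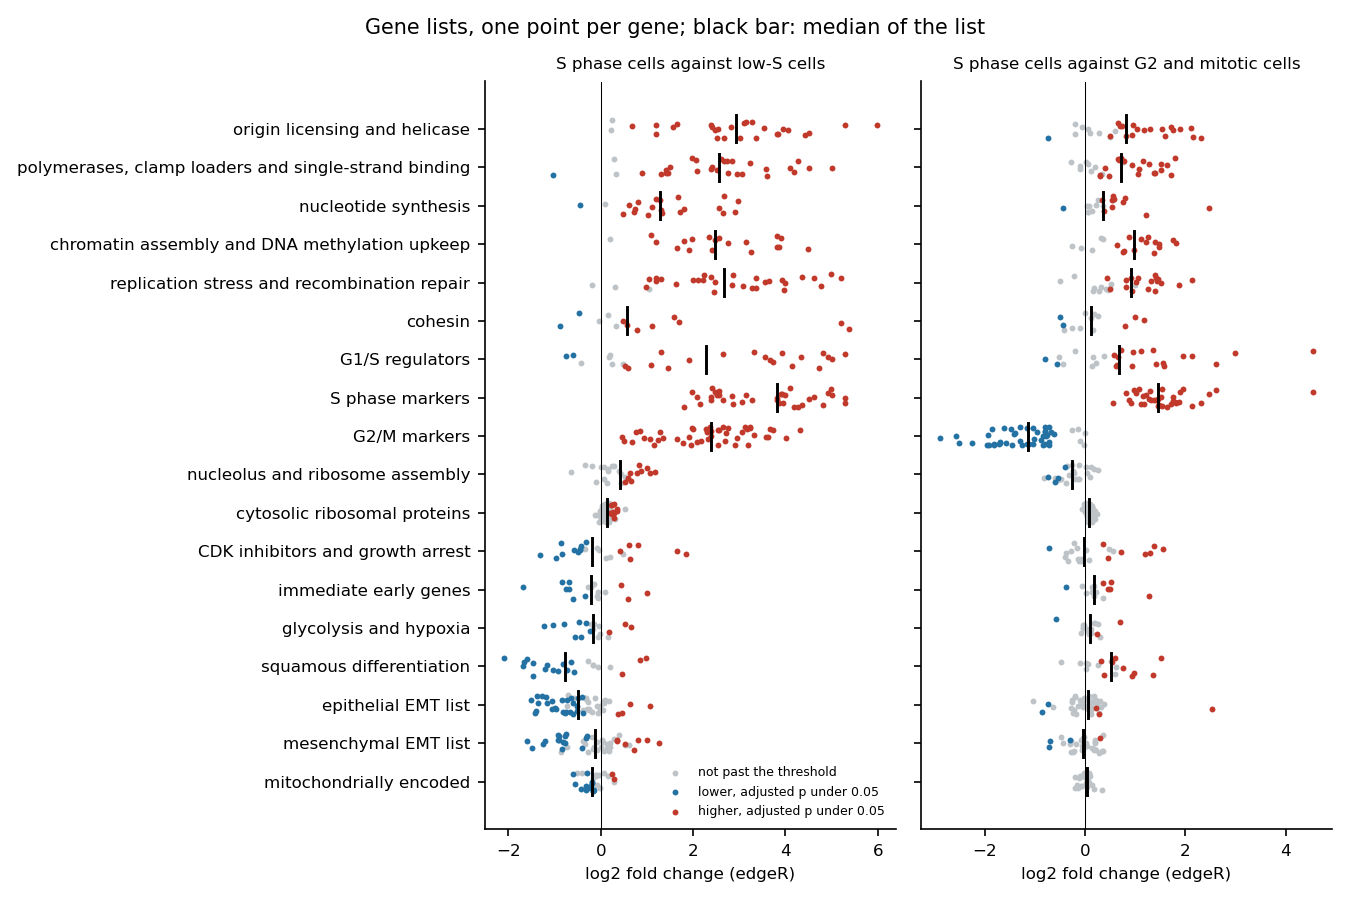
Each point is a tested gene outside the rule, placed by its log2 fold change in S phase cells against low-S cells (left) and against G2 and mitotic cells (right). Each line of points is a gene list, black bars are list medians, red and blue points passed the test as higher and lower, and grey points did not. The replication lists lie to the right in both panels, with medians of 2.92 and 0.82 for origin licensing and helicase, while the G2/M markers lie at 2.38 on the left and at -1.15 on the right. With spike-in totals as library size, the left medians of the epithelial and mesenchymal EMT lists, CDK inhibitors, immediate early, glycolysis and mitochondrial genes turn positive. They stay below the 0.55 of all genes there.

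Most tested regulators of the G1/S transition were higher in S phase cells than in each of the other groups. Among 26 G1/S regulators, 19 were higher and 2 lower than in low-S cells, at a median of 2.28. Against G2 and mitotic cells, 17 were higher and 2 lower, at a median of 0.68. CCNE2, cyclin E2, had 86.0, 62.3, 62.4 and 59.0 in S phase cells, 1.67, 1.27, 2.66 and 2.67 in low-S cells and 6.60, 0.794, 2.43 and 1.63 in G2 and mitotic cells. Its log2 fold change was 4.92 (SE 0.21) against low-S cells and 4.55 (SE 0.26, adjusted p = 7.54e-12) against G2 and mitotic cells, the largest of the latter comparison. CCNE1 rose by 3.92 and 2.98 in the same comparisons. E2F1 had 53.1, 55.9, 44.2 and 48.1 against 4.29, 3.39, 4.51 and 7.11 in low-S cells (log2 fold change 3.32), and E2F2 and E2F8, an activator and a repressor of the family, rose by 5.00 and 4.81. DTL, which directs CDT1 to degradation in S phase, went from 1.19, 0.212, 4.92 and 3.91 to 108, 121, 94.7 and 106. FAM111B and ZNF367 had log2 fold changes of 5.13 and 5.36. CCND1, cyclin D1 of early G1, fell: 90.1, 98.3, 116 and 87.6 in S phase cells against 168, 144, 126 and 149 in low-S cells (log2 fold change -0.61, SE 0.12, adjusted p = 0.000465). It was also lower than in G2 and mitotic cells, by 0.56 on the log2 scale. With spike-in totals its fall against low-S cells no longer passed the test. CDK6, the kinase partner of cyclin D1, did not pass the test at 0.25.

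Inhibitors of the cycle did not move as 1 group. Of 22 genes for CDK inhibitors and growth arrest, 6 were higher and 10 lower, at a median of -0.20, which turned to 0.37 with spike-in totals. CDKN1A, the inhibitor p21, was among the higher ones, with 963, 609, 750 and 1110 in S phase cells, 353, 449, 580 and 516 in low-S cells and 226, 269, 236 and 467 in G2 and mitotic cells. Its log2 fold changes against these groups were 0.81 (SE 0.13, adjusted p = 0.000137) and 1.55 (SE 0.10, adjusted p = 1.06e-10). CDKN1B, p27, was higher by 0.41 (adjusted p = 0.0405), and the INK4 inhibitors CDKN2C and CDKN2D were higher by 1.84 and 1.64. CDKN2C was also above low-S cells in G2 and mitotic cells, at 71.1, 73.1, 85.1 and 52.7. TXNIP, a regulator of glucose uptake and redox state, fell from 233, 141, 207 and 209 to 69.2, 55.0, 71.5 and 133, and CCNG2, a cyclin of arrested cells, had a log2 fold change of -0.98. MYC was lower as well, with 26.5, 18.1, 28.8 and 26.2 against 60.1, 31.8, 29.7 and 47.6 (log2 fold change -0.76, adjusted p = 0.00201), but the call was lost with spike-in totals. The call for CDKN1B was lost when any of 3 plates was left out.

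Transcripts of histones went in both directions. Replication-coupled histone mRNAs mostly end in a stem-loop without a poly(A) tail, and the libraries were made from poly(A) RNA. Of 56 such genes in the data, 6 passed the filter on low counts, and of these 2 were higher and 4 lower. HIST1H4C, a histone H4 gene, had 712, 416, 355 and 334 in S phase cells, 36.7, 23.7, 46.7 and 28.6 in low-S cells and 183, 90.6, 99.7 and 57.6 in G2 and mitotic cells. Its log2 fold change was 3.67 (SE 0.17) against low-S cells and 2.13 (SE 0.10) against G2 and mitotic cells. HIST1H1A, a linker histone, rose by 3.47. HIST2H2BE, a histone H2B gene, fell from 68.7, 31.4, 43.0 and 28.2 to 12.9, 3.61, 4.21 and 1.22 (log2 fold change -3.08), and HIST1H2BD had -2.18. In G2 and mitotic cells HIST2H2BE was low as well, at 11.7, 6.36, 2.43 and 2.72. The copies of these genes are similar in sequence, and how the authors' counting divided reads between them is not given in the sources used here. Of 9 genes on a list of histones made outside replication, to which not every member need strictly belong, 7 were higher and 0 lower. H2AFX had 1.93, and H2AFZ, the most abundant of them in S phase cells, 1.66, with 1163, 1067, 865 and 1126 against 300, 264, 337 and 417. G2 and mitotic cells had similar H2AFZ levels, at 1255, 1210, 975 and 1221. Against them, 2 of the 9 histones were higher and 0 lower.

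G2/M transcripts were already raised in the S phase cells, although cells high in G had been left out. All 47 tested G2/M markers outside the rule were higher than in low-S cells, at a median of 2.38, and 43 of 48 were lower than in G2 and mitotic cells, at a median of -1.15. CDK1, the mitotic kinase, had 192, 140, 166 and 197 in S phase cells, between 7.63, 3.39, 12.1 and 19.5 in low-S cells and 337, 252, 260 and 308 in G2 and mitotic cells. CCNA2, cyclin A2, and MKI67, the proliferation marker Ki-67, took the same middle place, with log2 fold changes of 3.56 and 3.62 against low-S cells and of -0.81 and -0.72 against G2 and mitotic cells. CKAP2L, HJURP and AURKB, of the spindle and the centromere, were higher than in low-S cells by 4.32, 3.72 and 3.67, and AURKB differed from G2 and mitotic cells by -0.27 (adjusted p = 0.179).

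**Figure D5:**
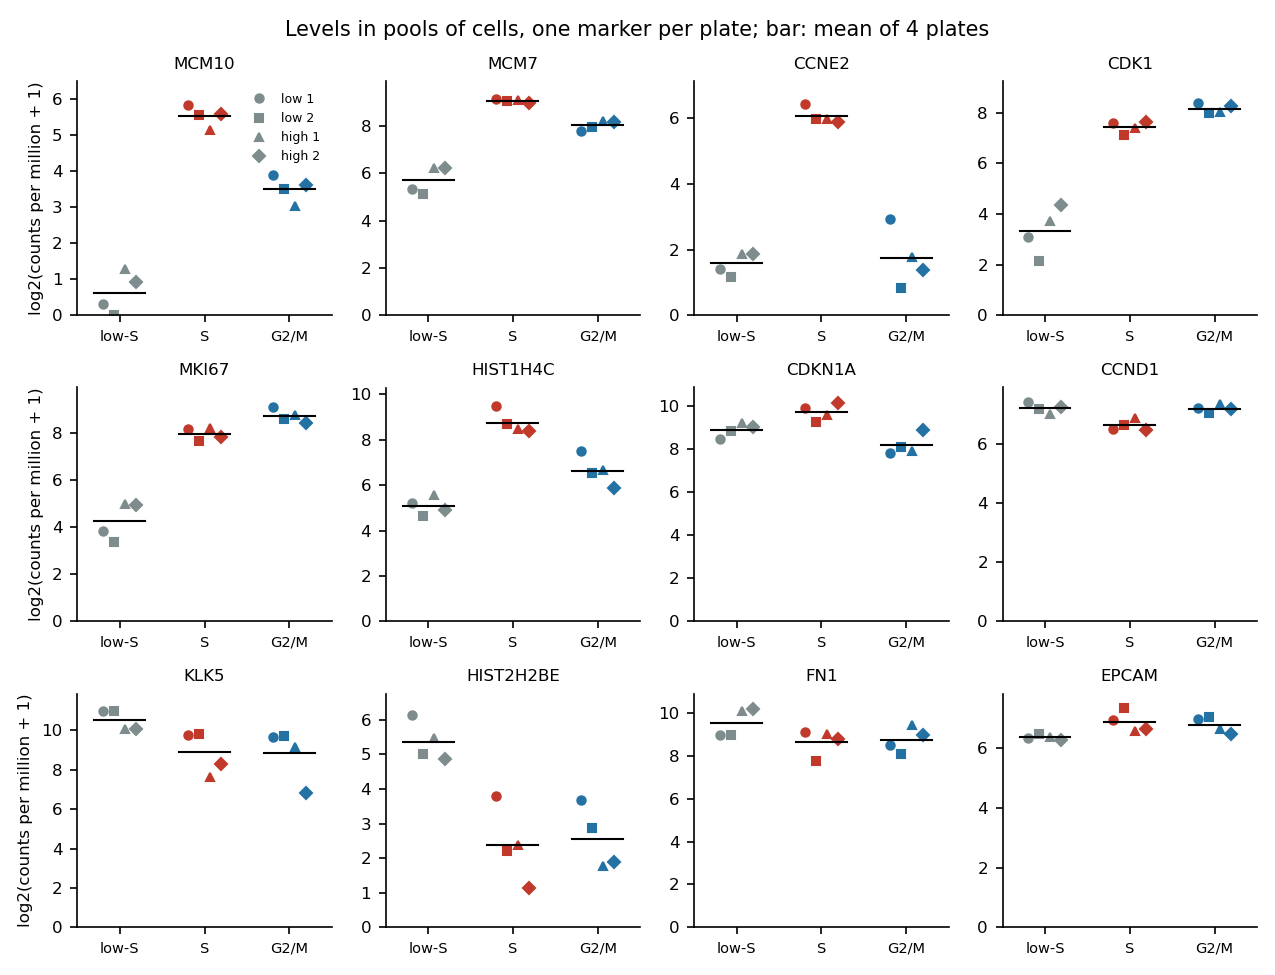
Levels of 12 genes as log2 of CPM plus 1 (vertical axes) in pooled low-S cells, S phase cells and G2 and mitotic cells, with 1 marker per plate and a bar at the mean of 4 plates. CCNE2 and HIST1H4C are highest in all 4 S phase pools, CDK1 and MKI67 lie between the other groups, and CCND1, KLK5 and HIST2H2BE are lower than in low-S cells. FN1 has 1 plate against its direction, low-resolution replicate 1.

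Epithelial differentiation transcripts were lower in S phase cells. Of 22 tested genes of squamous differentiation, 14 were lower and 3 higher than in low-S cells, at a median of -0.77 (-0.20 with spike-in totals, with 10 lower and 5 higher). KLK5, a protease that sheds keratinised cells, had 884, 910, 196 and 316 against 2029, 2041, 1090 and 1095 (log2 fold change -1.66, SE 0.15, adjusted p = 1.16e-07), and KLK7, which KLK5 activates, had -1.69. Against G2 and mitotic cells neither passed the test, at 0.05 (SE 0.23) and 0.01 (SE 0.15), and the plates went in opposite directions: KLK5 had 196 against 580 in high-resolution replicate 1 and 316 against 113 in replicate 2. SPRR1A and SPRR1B, precursors of the cornified envelope, had -2.11 and -1.61. DMKN, dermokine, did not pass the test at 0.21. Outside this list, the largest falls with the same sign in every plate mostly held few counts. CASP14, the caspase of cornification, had 6.43, 4.51, 4.91 and 1.22 against 36.0, 42.4, 19.5 and 25.9 (log2 fold change -2.90). ATP10B, a lipid flippase, had 1 count in the S phase pools and 103 in the low-S pools, a level 28.7 times higher in the latter with an exact 95% interval of 5.05 to 1146 that covers counting error only. It was at 0 in G2 and mitotic cells of every plate. MUC15, a membrane mucin, APOBEC3A, a cytidine deaminase, SATB1, a chromatin organiser, and DAPK2, a death-associated kinase, had log2 fold changes between -3.17 and -2.84, and so did ATP6V1C2, a proton pump subunit. PPP1R3C, which targets a phosphatase to glycogen, had -2.82.

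The study scored epithelial-mesenchymal transition (EMT) with a list of epithelial (E) and a list of mesenchymal (M) genes. Its score per cell was the M minus the E score of gene set variation analysis, which was not computed here. The lists were instead tested gene by gene and summed, and in a sum abundant genes weigh most. KRT7 of the E list, for one, had 2766, 3016, 3736 and 3495 CPM in S phase cells and 2559, 2772, 3770 and 3090 in low-S cells. Of 54 tested E genes, 26 were lower and 4 higher in S phase cells, at a median of -0.50. With spike-in totals 9 were lower and 15 higher, and the median was 0.07, still below the median of all genes there. Of 48 tested M genes, 16 were lower and 7 higher, at a median of -0.12. With spike-in totals 24 were higher and 2 lower, and the median of 0.44 was also below that of all genes, 0.55. Of all 10272 genes, 5834 were higher and 342 lower there. The share of M genes higher, 14.6%, was below the 19.4% of all genes, and the share lower, 33.3%, was above their 18.2%. The M list depended on the processing, with 13 higher and 13 lower of 49 with no mitochondrial limit, 8 higher and 7 lower of 45 with the highest 5% of S, and 2 higher and 7 lower of 48 with DESeq2. Summed per cell, the E list had medians of 70.5, 74.3, 64.2 and 59.2 counts per 10000 in S phase cells and 80.3, 94.0, 75.6 and 73.6 in low-S cells, a ratio of 0.830 (log2 SD 0.0698, n = 4 plates) with 4 of 4 plates lower (exact sign-flip permutation p = 0.125, the smallest possible). Against G2 and mitotic cells the ratio was 1.19 and higher in 4 of 4 plates (exact p = 0.125), and of 45 tested E genes 3 were higher and 2 lower. The M list had 35.9, 38.0, 57.1 and 63.5 against 44.4, 37.9, 62.9 and 55.1, a ratio of 0.959 with 2 of 4 plates higher (exact p = 0.75). The plates thus differed in direction, and a test that cannot go below 0.125 does not decide whether M differed.

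Single E genes with larger falls were EPS8L1, an actin regulator, ERBB3, a receptor of the EGF family, PRR15L and TJP3, a tight junction protein, at log2 fold changes between -1.51 and -1.38. CDH1, E-cadherin, had 52.3, 65.0, 35.8 and 46.8 against 86.1, 73.7, 48.4 and 43.9 and did not pass the test (log2 fold change -0.34, adjusted p = 0.0576), with 3 of 4 plates lower. EPCAM, an epithelial adhesion molecule, was higher at 122, 162, 94.7 and 99.2 against 81.1, 89.2, 83.4 and 77.1 (log2 fold change 0.47, adjusted p = 0.00331). In G2 and mitotic cells EPCAM had 126, 130, 98.9 and 88. Among mesenchymal genes, VIM, vimentin, was higher by 0.36 (adjusted p = 0.0299) with 3 of 4 plates in that direction. FN1, fibronectin, was lower with 542, 216, 513 and 442 against 494, 494, 1083 and 1146 (log2 fold change -0.91, SE 0.16, adjusted p = 0.00029), also in 3 of 4 plates. The call for FN1 was lost with spike-in totals, and that for VIM when any of 3 plates was left out. BGN, PTX3 and PTGDS, all below 25 CPM, had -1.59, -1.49 and -1.26, PTGDS in 3 of 4 plates, and each of these calls was lost without at least 1 plate. CAV1 and EMP3 did not pass the test at 0.14 and 0.20. Of 7 tested breast epithelial markers, 3 were higher and 0 lower: KRT18 by 0.76, EPCAM by 0.47 and KRT5 by 0.23, while KRT17 and KRT8 had -0.13 and -0.09 and did not pass.

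Growth and metabolism moved less. Of 26 nucleolar genes, 10 were higher and 0 lower (median 0.42), led by NOP56 at 1.19, with FBL, the methyltransferase fibrillarin, at 1.00. Against G2 and mitotic cells, 0 of 24 tested nucleolar genes were higher and 4 lower. Of 76 cytosolic ribosomal protein genes, 10 (13.2%) were higher, below the 19.4% of all genes. This count depended on the processing, with 39 of 76 higher with no mitochondrial limit, 28 with the highest 20% of S and 23 with mitochondrial genes left out. RPL35, RPS7, RPS2 and RPL17 had log2 fold changes of 0.29 to 0.35. In glycolysis and hypoxia, 8 of 19 were lower and 3 higher (median -0.16, 0.41 with spike-in totals). VEGFA, the hypoxia-induced growth factor of vessels, fell from 141, 102, 107 and 126 to 54.7, 55.9, 45.6 and 52.3, and NDRG1, a stress-induced gene, from 128, 143, 88.1 and 123 to 57.9, 77.6, 48.4 and 58.4. Both were also below low-S cells in G2 and mitotic cells, VEGFA at 57.2, 85.0, 74.6 and 98.4 and NDRG1 at 52.05, 59.6, 37.3 and 48.9. PFKP, a phosphofructokinase, was higher by 0.65, and GAPDH and LDHA did not pass the test at -0.05 and -0.16. In cholesterol synthesis and its control, 5 of 20 (25%) were lower and 2 (10%) higher (median 0.03), with INSIG1, which restrains the pathway, at -0.71. Over all genes the shares were 18.2% lower and 19.4% higher, so this list did not stand out clearly. Of 30 mitochondrially encoded transcripts, 14 were lower and 2 higher (median -0.18, 0.39 with spike-in totals), among them MT-CYB at -0.43 and MT-ND3 at -0.33, whereas MT-ND2 did not pass at -0.07. Against G2 and mitotic cells, 0 of 27 mitochondrially encoded transcripts were higher and 0 lower.

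Among genes of signalling, counts in both directions were found. Of 17 immediate early genes, 7 were lower and 3 higher (median -0.22, 0.35 with spike-in totals). The share higher, 17.65%, is near the 19.4% of all genes, and the share lower is 41.18%. EGR3 and DUSP1, induced by growth factor signalling, had -1.69 and -0.85, and FOSL1, an AP-1 subunit, was higher with 166, 116, 282 and 288 against 64.6, 60.6, 141 and 154 (log2 fold change 1.00, adjusted p = 2.94e-07). In G2 and mitotic cells FOSL1 was also above low-S cells, at 144, 87.4, 236 and 338. Of 17 targets of YAP and TAZ, 4 were higher and 4 lower, shares of 23.5% each that are near those of all genes (19.4% and 18.2%). With spike-in totals 12 were higher and 1 lower, and the median of 0.57 was near the 0.55 of all genes. AXL had 0.96, NT5E 0.79 and IGFBP3 -1.61. Of 9 tested EGF family ligands and receptors, AREG, amphiregulin, was the 1 higher gene (415, 391, 689 and 1122 against 165, 210, 579 and 727) and ERBB3 the 1 lower, and the median of -0.19 became 0.38 with spike-in totals. These shares of 11.1% each are below those of all genes. In G2 and mitotic cells AREG had 408, 332, 625 and 1316.

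Set against G2 and mitotic cells, 529 (6.3%) of 8400 genes tested outside the rule were higher in S phase cells and 522 (6.21%) lower, with a median log2 fold change of 0.01. With spike-in totals the median was -0.13, and 27.6% of calls were higher in place of 50.3%. The 36 S phase markers outside the rule were all higher, at a median of 1.46, as were 18 of 27 genes of origin licensing and helicase, 20 of 29 polymerase and clamp genes, 14 of 19 chromatin assembly genes and 18 of 29 repair genes. MCM10, FEN1, EXO1, CDT1 and MCM7 were higher by 2.11, 1.80, 2.12, 1.71 and 1.03. After CCNE2, the largest rises were those of FAM111B at 3.54, LHX2, a LIM homeobox factor, at 3.08, CCNE1 at 2.98 and DTL at 2.60. LHX2 had 15.3, 16.2, 11.2 and 8.52 in S phase cells, 2.20, 1.59, 0.811 and 1.09 in G2 and mitotic cells and 0.715, 0.424, 0.820 and 0.355 in low-S cells.

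The largest falls outside the rule were mostly of mitotic genes. KIF20A, a kinesin of the central spindle, had 18.5, 18.1, 30.1 and 28.0 in S phase cells and 232, 195, 238 and 198 in G2 and mitotic cells (log2 fold change -3.14, SE 0.14, adjusted p = 5.24e-14), and PSRC1, a spindle protein, DEPDC1 and NEK2, a centrosome kinase, had -2.90, -2.70 and -2.57. TNFAIP8L1 had 3 counts in the S phase pools and 91 in the G2 and mitotic pools, a ratio of 28.9 with an exact 95% interval of 9.57 to 143. Outside the cell cycle, 9 of 18 tested genes of squamous differentiation were higher than in G2 and mitotic cells and 0 lower, at a median of 0.52, so S phase cells lay below low-S cells and above G2 and mitotic cells for this list. KRT17 and KRT5 were higher by 0.96 and 0.40.

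Whether S phase cells stood out equally in both experiments was tested as the interaction of cell group and resolution. The signed log2 difference, S phase minus low-S cells, was higher at high resolution for 13 genes (0.127% of 10272) and lower for 101 (0.983%). For the 101 genes, the level in S phase cells differed little between the experiments, with a median log2 ratio of high to low resolution of -0.07, whereas in low-S cells that ratio was 1.01 and above 0 for 88 genes. DTL had 108, 121, 94.7 and 106 in S phase cells of the 4 plates, but 1.19 and 0.212 in low-S cells at low resolution and 4.92 and 3.91 at high resolution (interaction -2.81, SE 0.56, adjusted p = 0.00653). DSCC1, at -3.41, and SPC25, a kinetochore subunit, at -2.54, had the same pattern, as did KCTD15 at -2.62. This moved together with the higher S limit of the low-S cells in the high-resolution plates, whose part was not tested. The sorted regions also differed between the experiments, so their part cannot be told apart from that of resolution. By list, the difference was lower at high resolution for 1 of 28 genes of origin licensing and helicase, 3 of 30 of polymerases, 3 of 21 of nucleotide synthesis, 4 of 32 of replication stress and repair, 3 of 26 G1/S regulators and 9 of 47 G2/M markers, and higher for 0 of them. These shares lie between 3.57% and 19.1%, above the 0.983% of all genes, and the lowest of them is 1 gene. Other lists had such shares too, with 4 of 22 lower for squamous differentiation, 2 of 26 for the nucleolus and 2 of 9 for histones made outside replication. Cohesin and CDK inhibitors had 0 of 13 and 0 of 22, lists too short to show a share near 0.983%. Most squamous genes (14 of 22) were lower in S phase cells than in low-S cells. A lower signed difference can there be a larger fall, whereas for DTL and DSCC1 it was a smaller rise. Lower signed differences thus occurred outside the replication lists, but need not be the same change. Of the 13 genes with a higher signed difference, CHI3L2, CYP1A1, CXCL1, ZNF165 and CXCL2 had interactions of 3.35, 2.92, 1.66, 1.59 and 1.23. For CHI3L2 and CXCL2, which were lower in S phase cells at low resolution, the difference was smaller in size at high resolution. CXCL1, a chemokine, had 6.43, 12.6, 62.4 and 21.9 in S phase cells and 13.3, 34.5, 45.9 and 19.0 in low-S cells, so that it was lower in both low-resolution plates and higher in both high-resolution plates.

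The E2F motif was also counted over the promoters of all genes tested. It was in 175 of 1659 promoters (10.5%) of genes higher than in low-S cells, 48 of 1479 (3.25%) of those lower, and 488 of 8429 (5.79%) of all genes tested. Among the 36 S phase markers outside the rule, 27 had a promoter in the table and 11 of these (40.7%) held it, against 3 of 41 (7.32%) G2/M markers. The CHR motif had the reverse order, in 2 of 27 (7.41%) and 27 of 41 (65.9%), with 9.47% over all genes tested. CCAAT was in 63.0% and 65.9%, with 37.5% over all genes tested, and over all 27305 genes of the table the shares were 3.34% for E2F, 15.5% for CHR and 35.7% for CCAAT. The motif matches describe these windows only. The windows of MCM10, CDC45, RAD54L, CCNE1, CCNA2 and MKI67 held no E2F match, although these genes were among those with large rises. That of RRM2, a gene of the rule, held none either.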

How the data were processed

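Single cells of 4 plates (2 low-resolution, 2 high-resolution) were sequenced by SORT-seq, which tags each mRNA molecule with a unique molecular identifier (UMI). The submitters' processing notes name STAR 2.7.3a, Seurat 4 and hg38. The deposited values are estimated counts: the authors corrected the number of UMIs per gene and well for collisions among 4096 UMI sequences, so they are not whole, and they were rounded after summing over cells. The limits of the study on wells were used (2000 to 9000 genes, mitochondrial share under 40%), and doublets were treated by that upper limit only. S and G were computed per plate as described, and the cells of each group were summed per plate. Plates were tested as a block with edgeR 4.0.16 in R 4.3.3 (TMM scaling, filterByExpr, quasi-likelihood test, Benjamini-Hochberg adjusted p under 0.05), and DESeq2 1.42.0 was an alternative. Other alternatives were spike-in totals, no filter on low counts, thinning, other limits for S and mitochondria, no plate block, and leaving out each plate. The scripts were tested on simulated data. Both groups of a comparison come from the same plate, which is where the pairing comes from. Low- and high-resolution plates share only a replicate number.

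Genes named were the 16 rule genes, 17 fixed genes of the cell cycle and of epithelial or mesenchymal state, the 10 largest called rises and falls with the same sign in every plate against low-S cells (5 against G2 and mitotic cells, and 5 in each direction for the interaction), and, in each list, up to 4 called members with the largest change and up to 2 of the most abundant that did not pass. Some of these are not reported here. The members and lists were chosen with earlier results of these data known. Promoters came from RefSeq (GRCh38.p14) and matched 8429 of the 10272 tested genes. Pools of S phase cells hold fewer counts than the plates, which limits low genes, and intervals cover counting error only.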

Additional observations from a re-analysis of the deposited data

Results flagged for a closer look

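The difference between S phase and low-S cells was not equal in the 2 experiments by edgeR's interaction test (adjusted p under 0.05) for 13 genes whose signed log2 difference was higher at high resolution and 101 for which it was lower. The 5 genes with the largest positive interaction were CHI3L2 (3.35), CYP1A1 (2.92), CXCL1 (1.66), ZNF165 (1.59) and CXCL2 (1.23). CXCL2, a chemokine like CXCL1, was lower in S phase cells in all 4 plates, and by less at high resolution. The 5 with the largest negative interaction were DSCC1 (-3.41), DTL (-2.81), TJP3 (-2.68), KCTD15 (-2.62) and SPC25 (-2.54). TJP3, unlike the other 4, was lower in S phase cells in all 4 plates, with 8.85, 17.1, 0.701 and 1.82 CPM against 15.0, 23.5, 13.3 and 12.4. The number of such genes depended on single plates and on depth, as given under the processing.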

How the results depend on the processing

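Counts of calls moved with the processing. Against low-S cells, 1990 higher genes became 1029 with cells thinned to 10000 counts and 5834 with spike-in totals, and 1866 lower genes became 1019 with DESeq2, 897 when thinned and 342 with spike-in totals. Against G2 and mitotic cells, 529 higher genes became 177 with DESeq2, 159 when thinned, 295 with spike-in totals and 345 with the highest 20% of S, and 522 lower genes became 186 with DESeq2, 158 when thinned and 311 with the highest 5% of S. The 114 interaction genes became 32 with DESeq2, 197 with no filter on low counts, 27 when thinned and 174 with the highest 20% of S. Without the replicate block of the plates, 1168 genes were lower than in low-S cells, 239 higher and 216 lower than in G2 and mitotic cells, and 31 had an interaction, 15 of the named genes no longer passed (among them FOSL1, AREG, AXL, KLK7 and VIM), the lower genes of the squamous, E and M lists became 7, 14 and 8 in place of 14, 26 and 16, and KRT17 had 0.007 in place of -0.13. Leaving out 1 plate gave 1625 to 1742 higher and 1447 to 1553 lower genes against low-S cells, and 52 (without high-resolution replicate 2) to 196 (without low-resolution replicate 2) interaction genes. Calls lost without 1 plate were those of CDKN1B, KRT5, RPL17, VIM, BGN, PTGDS and PTX3. The ratio of the M list was 1.20 with no mitochondrial limit, 1.097 with the highest 5% of S and between 0.9023 and 1.016 when 1 plate was left out, the last without low-resolution replicate 1. With spike-in totals, which moved the median of all genes to 0.55, log2 fold changes turned positive for CDH1 (0.23), GAPDH (0.52), KRT17 (0.44), KRT8 (0.48), LDHA (0.41), MT-CYB (0.14), MT-ND2 (0.50), MT-ND3 (0.25) and PECAM1 (0.069). When 1 plate was left out KRT17 ranged from -0.372 (without high-resolution replicate 2) to 0.112 (without low-resolution replicate 2), and it turned to 0.025 with the highest 5% of S. Beyond fewer counts after thinning, the cause was not tested.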
